A study of Mus musculus with 6 samples.

Results

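The knockout of TIARP was compared with wild type over all 3 conditions of the series at once: 3 KO arrays were set against 3 WT arrays, paired by condition, so that all 6 of the 6 arrays in the series were used. KO mice were TIARP-/- and WT mice TIARP+/+, both on the strain C57BL/6. Each pair held 1 KO and 1 WT array. The first pair was peritoneal macrophages taken 3 days after thioglycollate was injected into the peritoneal cavity, the second was such macrophages after 24 hours with TNFalpha, and the third was neutrophils of the spleen selected on magnetic columns for Ly6G. The labels number the mice 1 to 3 for every array. They do not say whether each array held RNA pooled from those mice, and the arrays of a genotype may share mice. How the allele was made, and the age of the mice, are not given by the labels or the design text.

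TIARP is the mouse protein of Steap4, a membrane metalloreductase that uses NADPH to reduce iron and copper at the cell surface and in endosomes. Its transcript is known to be induced by TNF and by interleukin 6, and in mice its loss is known to make inflammation and experimental arthritis worse. Macrophages recruited to the peritoneum release chemokines that bind Cxcr1 and Cxcr2, the receptors by which neutrophils follow them, so the comparison bears on both the cells that send such signals and the cells that receive them.

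A level below is the log2 processed signal of a probe minus the 75th percentile of its array, and a difference is KO minus WT of such levels within 1 pair. The 75th percentile was 409.5, 337.7 and 224.0 signal units on the KO arrays of macrophages, macrophages with TNF and neutrophils, against 489.8, 432.1 and 231.3 on the WT arrays. Between 56.6% and 60.4% of probes were well above background on KO arrays, and between 57.4% and 62.2% on WT arrays. Tests covered 33683 probes that were well above background on at least 3 arrays; 23744 genes had such a probe, and each gene was read from its brightest probe. The labelled cell types carried their defining markers: Adgre1, a surface marker of macrophages, was at 6.55 and 6.71 on the KO and 6.28 and 6.25 on the WT macrophage arrays, and Ly6g at 1.98 on the KO and 1.84 on the WT neutrophil array. The neutrophil samples also carried macrophage and B cell markers, with Adgre1 at 3.46 in KO and 4.84 in WT. In bulk RNA, fewer cells of a type and less RNA per cell cannot be told apart.

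Steap4 itself, read by a probe at chr5:7981239-7981298 (mm9), had levels of -2.30, -4.72 and -2.64 on the KO arrays of macrophages, macrophages with TNF and neutrophils, against -1.49, -3.13 and -2.25 on the WT arrays. It was lower in KO in each pair, but the KO and WT arrays overlapped across conditions, and the KO array of macrophages with TNF was not well above background. The mean difference was -0.93 ± 0.61 (SD, n = 3 pairs), with a 95% interval from -1.67 to -0.19, and it did not pass the test (limma adjusted p = 0.296). The labels do not say which part of Steap4 was deleted, so the probe is no full check of the genotype labels.

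No probe passed the pooled test. Of 33683 probes, 0 were higher and 0 were lower in KO by limma with the condition as a block and an adjusted p under 0.05, which is 0% in each direction, and the smallest adjusted p was 0.127. Unadjusted p-values were under 0.05 for 4882 probes (14.5%), of which 3250 were higher and 1632 lower in KO. The count of passing probes also depended on the variance model and the background correction: 5 higher and 3 lower with a trended and robust variance, and 12 higher and 6 lower with normexp background correction. It depended most on the scaling: with arrays scaled to the spike-ins, 217 probes were higher and 10100 lower in KO, and the median difference of all probes was -0.48, against 0.04. The error of this test is the spread of the 3 differences, which come from 3 kinds of cells or treatments, so it does not measure the spread between mice of 1 condition. An exact sign-flip test over 3 pairs has 8 sign patterns and cannot give a two-sided p below 0.25.

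Differences were therefore described by size and sign. In all 3 pairs, 115 genes were at least 2-fold higher in KO (0.484% of genes tested) and 57 were at least 2-fold lower (0.24%). Of these, 67 higher and 39 lower had an approved-style symbol, not a Gm, Rik or LOC name. The rest included regions named by coordinates, some of them overlapping, and probes without a gene name. Over probes the counts were 176 higher (0.523%) and 88 lower (0.261%). Higher probes were 66.7% of those past the limit. With quantile normalization the probes numbered 141 higher and 110 lower (56.2% higher), and with spike-in scaling 44 higher and 443 lower (9.03% higher). The median difference of the 115 higher genes was 1.67 and that of the 57 lower genes -2.02, against 0.04 over all genes tested. The gene just inside the size limit had a smallest difference of 1.00 in size and the one just outside it 0.996, and 59 genes had a smallest difference between 0.9 and 1, against 39 between 1 and 1.1. Of the higher genes, 65 were well above background on all 6 arrays and 2 on no WT array; of the lower genes, 22 were on all 6 arrays and 9 on no KO array. Same sign in all 3 pairs, of whatever size, was found for 25.2% of genes as higher in KO and 17.1% as lower.

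Of the genes as read from their brightest probe, Zfp979, which encodes a zinc-finger protein, had the largest mean difference. Its levels were 3.00, 3.48 and 3.06 on the KO arrays of macrophages, macrophages with TNF and neutrophils, against -2.45, -2.37 and -4.10 on the WT arrays. Every KO array was far above every WT array, of which 2 of 3 were well above background, and the mean difference was 6.15 ± 0.89 (SD, n = 3 pairs; limma adjusted p = 0.164). Atp6v0e2, a membrane subunit of the proton pump that acidifies lysosomes, had levels of 2.31, 2.69 and -0.60 on KO arrays, against -2.75, -3.11 and -5.58 on WT arrays. KO and WT arrays again did not overlap, with 2 of 3 WT arrays well above background, and the mean difference was 5.28 ± 0.45 (SD, n = 3 pairs; limma adjusted p = 0.129). Tmem53, a transmembrane protein gene, was at 1.33, 1.69 and 1.48 on KO arrays, against -0.39, -0.71 and -3.06 on WT arrays. Those groups did not overlap either; the KO levels lay close together while the WT level was lowest in neutrophils.

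Ifi44, an interferon-induced gene, was at 0.39, 0.47 and -0.63 on KO arrays, against -4.26, -4.51 and -2.19 on WT arrays. Its difference was 4.65 and 4.99 in the macrophage pairs and 1.56 in neutrophils, which gave a wide spread (mean 3.73 ± 1.89, SD, n = 3 pairs; limma adjusted p = 0.248). Ctse, which encodes the aspartic protease cathepsin E, had levels of 1.28, 0.88 and 3.87 in KO and -3.04, -2.67 and 1.25 in WT. Its KO and WT arrays overlapped across conditions because the WT neutrophil array was high, although KO was higher within every pair (3.50 ± 0.85, SD, n = 3 pairs). Chil1, a secreted chitinase-like protein gene of activated macrophages and neutrophils, was at 1.502, 4.77 and 3.78 in KO and -0.998, -1.18 and 2.17 in WT. Its largest difference, 5.95, was in macrophages with TNF.

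The other genes among the 12 largest positive means were Elobl, Cxcr2, Entpd3, Gprc5b, Chst10 and Prok2. Elobl, a gene of the elongin B family, was on no WT array well above background and was at least 2.45-fold higher in KO. Entpd3, an ectonucleotidase that breaks down extracellular ATP, had a mean difference of 2.96 ± 0.80 (SD, n = 3 pairs), with 1 of 3 WT arrays well above background. Chst10, a sulfotransferase of the cell-surface HNK-1 carbohydrate, differed by 2.86 ± 1.36 and Prok2, which encodes the secreted peptide prokineticin 2, by 2.71 ± 1.59 (SD, n = 3 pairs each). Gprc5b, an orphan receptor, had a difference of 1.42 and 1.30 in the macrophage pairs and 6.04 in neutrophils, where the WT array was not well above background.

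**Figure D1:**
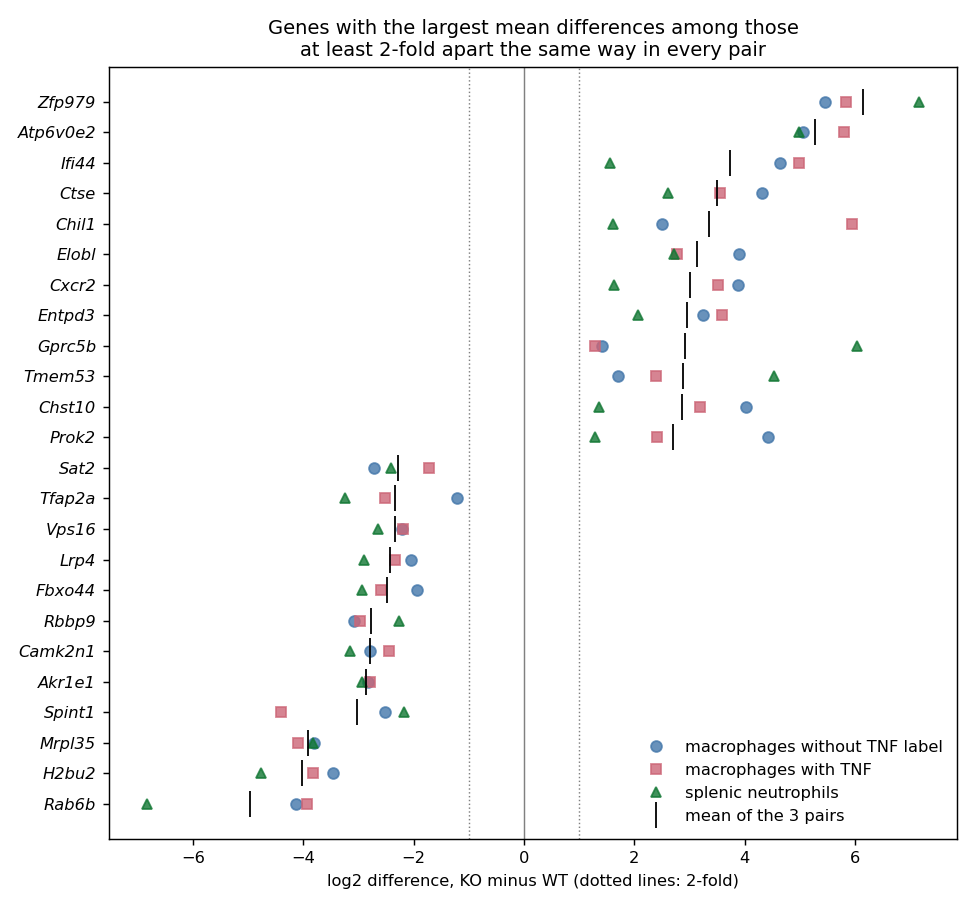
KO minus WT log2 difference (horizontal axis) of the 12 genes with the largest positive and the 12 with the largest negative mean among those at least 2-fold apart the same way in every pair; circles, squares and triangles are the macrophage, macrophage with TNF and neutrophil pairs, black bars their mean. Zfp979 at a mean of 6.15 and Rab6b at -4.96 are the ends of the scale, Akr1e1 and Mrpl35 have nearly the same value in all pairs, and Gprc5b and Chil1 are spread widely, Gprc5b with a WT neutrophil array not well above background; for Elobl, Camk2n1 and Tfap2a, 1 genotype was not well above background on any array, so their points are not measured on both sides.

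Among genes lower in KO, Akr1e1 and Mrpl35 had the smallest adjusted p and nearly the same difference in all pairs. Akr1e1 encodes an aldo-keto reductase, an enzyme that uses NADPH to reduce carbonyl groups. Its levels were -1.15, -1.08 and -3.27 on the KO arrays of macrophages, macrophages with TNF and neutrophils, against 1.68, 1.71 and -0.33 on the WT arrays. All 6 arrays were well above background, KO and WT arrays did not overlap, and the mean difference was -2.85 ± 0.07 (SD, n = 3 pairs; limma adjusted p = 0.127). Mrpl35, a protein of the large subunit of the mitochondrial ribosome, was at -4.85, -5.11 and -5.38 in KO and -1.04, -1.01 and -1.57 in WT. Only 1 of 3 KO arrays was well above background, so the measured difference of -3.91 ± 0.16 (SD, n = 3 pairs; limma adjusted p = 0.127) has a KO side near the detection limit. Vps16, a core subunit of the complexes that tether endosomes and lysosomes before they fuse, was at 1.67, 1.70 and 1.46 in KO and 3.87, 3.89 and 4.10 in WT. It was bright on all 6 arrays, with a mean difference of -2.34 ± 0.25 (SD, n = 3 pairs; limma adjusted p = 0.164).

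Rab6b, a small GTPase of traffic from the Golgi, had the most negative mean of the named genes, with levels of -3.01, -3.21 and -6.63 on KO arrays, against 1.11, 0.71 and 0.20 on WT arrays. The neutrophil pair was farthest apart, with a KO array not well above background, and the mean was -4.96 ± 1.62 (SD, n = 3 pairs; limma adjusted p = 0.192). H2bu2, a histone H2B gene, differed by -4.02 ± 0.68 and was well above background on 1 of 3 KO arrays. Spint1, which encodes an inhibitor of serine proteases at the cell surface, differed by -3.03 ± 1.21, and Rbbp9, a serine hydrolase gene, by -2.77 ± 0.44. Another tested probe of Rbbp9 went the other way, with differences of 0.08, 0.20 and 0.34, so the lower level holds for its brightest probe only. Fbxo44 (an F-box protein of ubiquitin ligases), Lrp4 (a receptor of the low-density lipoprotein receptor family) and Sat2 (an acetyltransferase of the spermidine acetyltransferase family) had means of -2.48, -2.43 and -2.28. Camk2n1, an inhibitor of calmodulin-dependent kinase, and Tfap2a, a transcription factor, were not well above background on any KO array; they were at least 4.18-fold and at least 2.46-fold lower in KO.

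**Figure D2:**
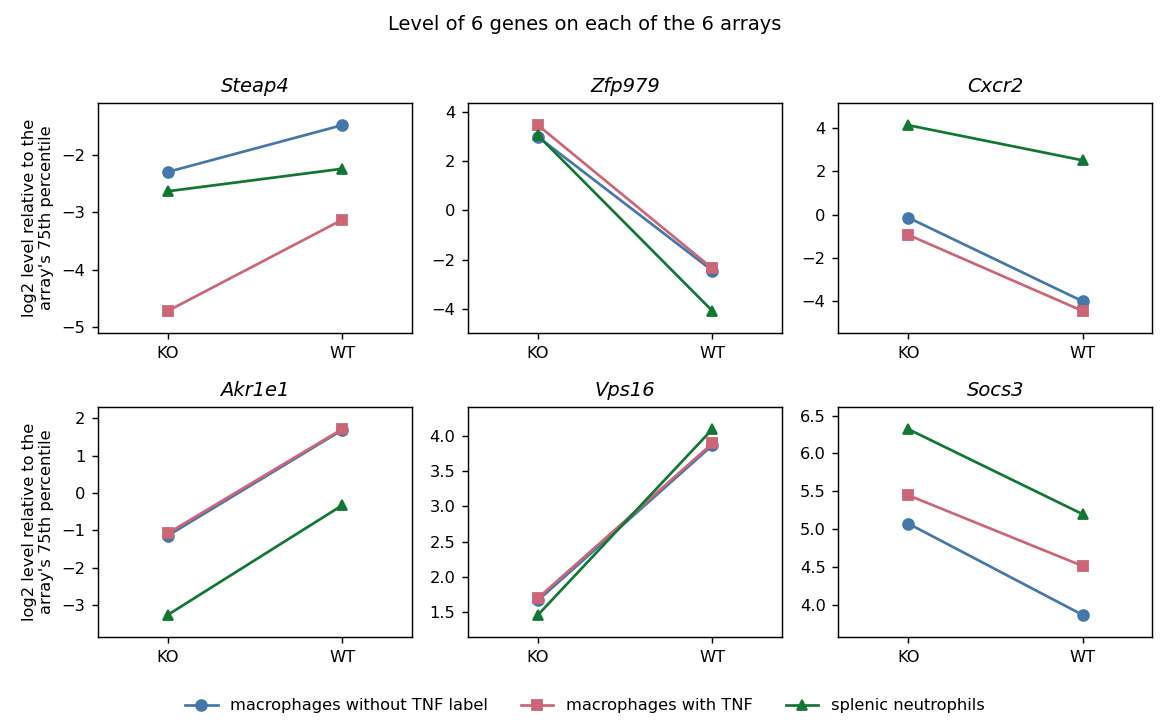
Log2 level relative to the 75th percentile of the array (vertical axis) of 6 genes on each KO array (left) and its WT array (right), with a line per pair. The lines of Akr1e1, Vps16 and Socs3 are close to parallel; those of Cxcr2 are steep in the macrophage pairs and shallow in neutrophils, where both levels are high; Steap4 has the smallest step in neutrophils, -0.39.

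Some genes had a difference of nearly the same size in every pair although their levels differed between cell types; 3 of them, Slfn4, Lrg1 and Arg2, were chosen after their values were seen, because they passed the test with another background correction. Slfn4, a Schlafen family gene of myeloid cells, was at 0.53, 1.34 and 3.73 in KO and -1.09, -0.27 and 2.06 in WT, a difference of 1.63 ± 0.03 (SD, n = 3 pairs). Lrg1, a secreted glycoprotein gene of neutrophil granules and the acute phase, differed by 2.18 ± 0.18, and Arg2, the mitochondrial arginase, by 1.59 ± 0.10 (SD, n = 3 pairs each). These 3 genes had a limma adjusted p of 0.164 each. With normexp correction their limma adjusted p was 0.037 for Slfn4, 0.0214 for Lrg1 and 0.0392 for Arg2.

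The probes are shown because, for several genes, probes at different places gave different answers. Each line gives the first 30 of the 60 bases of a probe as deposited, 5′ to 3′ and in lower case; the probe positions on mm9 follow after the lines. The first 2 lines are the 2 probes of Xaf1 and the next 2 are probes of Cd44, which gave differences of opposite sign. The last 2 are the 2 probes of Zfp979, both higher in KO.
Xaf1 upstream probe: ccttcaacccttgcatttatggactctgga
Xaf1 downstream probe: tctgtatttctggaccacagtcactcattt
Cd44 probe at the lower coordinate: tcagaggcagctggcatcctttgttttgtt
Cd44 brightest probe: gacgagacccggaatctgcagagtgtggac
Zfp979 brightest probe: cccccttttgttctagtcaacaactccttc
Zfp979 other probe: ccaagaatctgggagaagaacaactaaaag

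Xaf1, an interferon-induced gene linked to apoptosis, was lower in KO by its brightest probe at chr11:72122169-72122228 (plus strand), with differences of -0.73, -0.64 and -1.02. The other probe, at chr11:72127175-72127234, was at 3.52, 3.95 and 2.80 on KO arrays, against -3.91, -4.80 and -3.74 on WT arrays. Its difference of 7.57 ± 1.11 (SD, n = 3 pairs; limma adjusted p = 0.164) had the opposite sign and was larger than that of Zfp979. Cd44, a receptor for hyaluronan on leukocytes, had differences of -1.55, -1.75 and -1.89 by a probe at chr2:102651398-102651457 (minus strand) and of 0.51, 0.42 and 0.80 by its brightest probe at chr2:102654278-102654337. A further pair of Cd44 probes had means of -0.11 and 0.26. For Zfp979 the probes at chr4:146986053-146986112 and chr4:146992527-146992586 (minus strand) were both higher in KO. The brightest had the mean of 6.15 given above, and the other was not well above background on any WT array and was at least 7.80-fold higher in KO. Adam17, the protease that releases TNF from the cell surface, was read by a pair of probes that overlap, at chr12:21329370-21329429 and chr12:21329378-21329437, with means of 1.98 and 1.86; as they share most of their bases they are not separate evidence.

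Over the genes past the size limit, 34 had a further tested probe, and of those 59 probes 52 (88.1%) went the same way and 25 (42.4%) were past the limit as well. In the other direction, 67 probes of 65 genes were past the limit although the brightest probe of the gene was not. Gene-level statements here therefore hold for the probe that was read.

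The differences of the macrophage pairs resembled each other more than either resembled those of neutrophils. Across the 23744 genes, Pearson's r between the differences of macrophages with and without TNF was 0.706 (Spearman's rho 0.649), against 0.108 (0.135) between neutrophils and macrophages without TNF and 0.109 (0.163) between neutrophils and macrophages with TNF. These are descriptions across genes, which are not independent replicates; no array is in more than 1 of the pairs, but the macrophage arrays of a genotype may come from the same mice. In both macrophage pairs 774 genes were at least 2-fold higher and 242 at least 2-fold lower in KO, while in neutrophils 1040 were higher and 1087 lower. Of the 774 genes higher in both macrophage pairs, 130 were at least 2-fold lower in neutrophils, against 1087 of all 23744 genes. Of the 242 genes lower in both, 27 were at least 2-fold higher in neutrophils, against 1040 of all 23744.

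**Figure D3:**
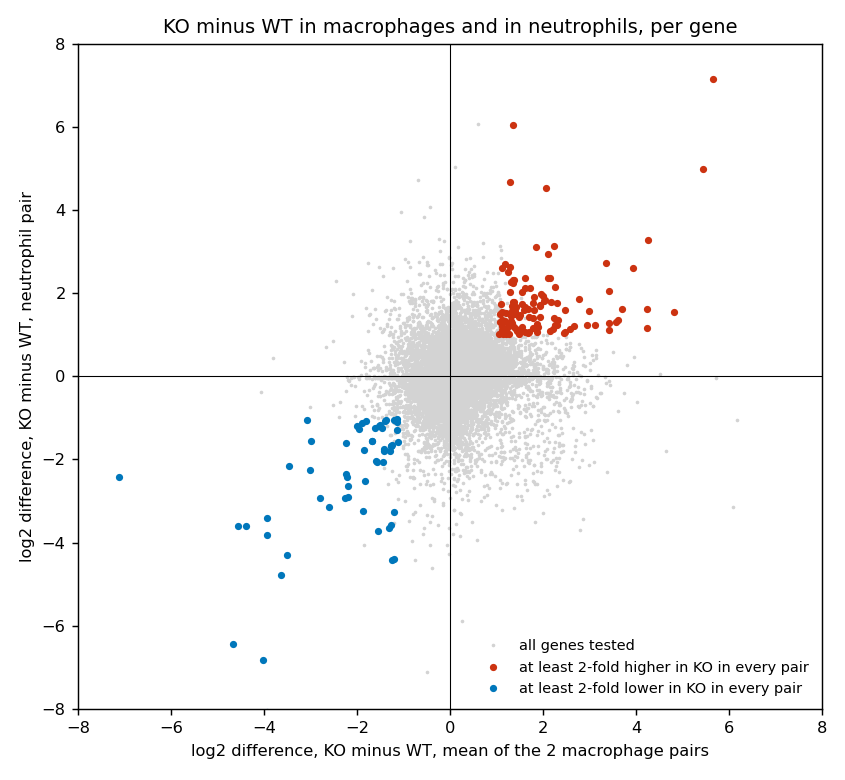
KO minus WT log2 difference per gene, as the mean of the 2 macrophage pairs (horizontal axis) and in the neutrophil pair (vertical axis); grey points are the 23744 genes tested, red and blue points the 115 and 57 genes at least 2-fold higher or lower in KO in every pair. Most genes far from 0 on 1 axis lie near 0 on the other, and the coloured points lie in the corners where the axes share a sign.

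The test of the difference between neutrophils and macrophages called 0 probes higher and 0 lower in neutrophils (0% each) by limma with an adjusted p under 0.05; the smallest adjusted p was 0.119, and 6834 probes (20.3%) had unadjusted p-values under 0.05. With other settings it called more: 939 higher and 1653 lower with a trended and robust variance, 2115 and 1497 with spike-in scaling, 1021 and 1847 with normexp, and 13 and 91 with a filter on all 6 arrays. The genes with the smallest adjusted p that were higher in neutrophils included Plekhs1, whose difference was 6.07 in neutrophils and 0.38 and 0.81 in the macrophage pairs. Crispld2, a secreted protein gene, was at 2.75 in neutrophils and at -0.68 and -0.65 in macrophages, and Xkr6 at 4.67, 1.33 and 1.23; Gprc5b and Oxt were the others. In the other direction, Plcd3, a phospholipase C gene, had a difference of -7.11 in neutrophils and of -0.49 and -0.51 in macrophages. Slc10a6, a transporter of steroid sulfates, was at -5.90, 0.23 and 0.30 by its brightest probe. Another tested probe of Slc10a6 did not show this, at -0.12, 0.15 and 0.16. It read WT neutrophils at -6.62, against -0.08 by the brightest probe. Ncstn, the nicastrin subunit of gamma-secretase, was at -3.85, 0.24 and 0.18, and Slc13a3 and Hnf4aos completed the list. The KO neutrophil array did not read Plcd3, Slc10a6 and Hnf4aos well above background, nor did the WT neutrophil array Plekhs1, Xkr6, Gprc5b and Oxt, so the size of these neutrophil differences is not measured on both sides.

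Most receptors for chemoattractants had higher levels in KO. None of the 18 tested passed the test. In all 3 pairs 12 were higher in KO and 1 was lower (Ccr3), against 25.2% and 17.1% of all genes. Past the size limit were 2, Cxcr1 and Cxcr2. The median of the list was 0.65, with 0.68, 0.56 and 0.69 in the 3 pairs, against 0.04 over all genes tested; with spike-in scaling it was 0.13, against -0.48 over all genes. Cxcr2, the receptor for Cxcl1 and Cxcl2, was at -0.14, -0.94 and 4.14 on the KO arrays of macrophages, macrophages with TNF and neutrophils, against -4.02, -4.46 and 2.51 on the WT arrays. The difference was 3.88 and 3.53 in the macrophage pairs and 1.63 in neutrophils (mean 3.01 ± 1.21, SD, n = 3 pairs; limma adjusted p = 0.211), and the neutrophil arrays of both genotypes were above all macrophage arrays. Cxcr1, its partner receptor, was at -2.39, -3.23 and 3.20 in KO and -4.29, -5.77 and 0.06 in WT. Its difference of 1.90, 2.54 and 3.14 was widest in neutrophils (mean 2.53 ± 0.62, SD, n = 3 pairs; limma adjusted p = 0.178), with 2 of 3 WT arrays well above background. Ltb4r1, the leukotriene B4 receptor, had a mean of 0.90 and Ptafr, the receptor for platelet-activating factor, of 0.86, while Cx3cr1 was at -0.07 and Ccr3, a receptor of eosinophils, at -0.76. Cxcr5 and Ccr6, which B cells carry, were at 1.62 and 1.62 in macrophages, 1.49 and 1.87 in macrophages with TNF, and 0.20 and 0.51 in neutrophils. Markers of mature neutrophils and of B cells were also higher in the KO macrophage samples (list medians 1.13 and 1.90 without TNF, 0.34 and 1.95 with it), and their part in these values was not tested.

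Among the ligands, the list of ELR CXC chemokines, which attract neutrophils, also held Pf4, a CXC chemokine without the ELR motif. Of its 6 genes, 2 were higher in all pairs (Cxcl1 and Pf4) and 0 lower, against 25.2% and 17.1% of all genes. The medians of the 3 pairs were 0.63, -0.51 and 0.71, so macrophages with TNF had the other sign. The median over the pairs was 0.37, and -0.15 when arrays were scaled to the spike-ins, against 0.04 and -0.48 over all genes. Without Pf4, a choice made after seeing the data, 1 of 5 was higher in all pairs and 0 lower, and the median was 0.31, and -0.21 with spike-in scaling. Cxcl1 was at 2.79, 3.20 and -0.18 in KO and 1.93, 2.96 and -1.44 in WT. It was higher in KO in each pair, by 0.78 ± 0.52 (SD, n = 3 pairs; limma adjusted p = 0.303). Cxcl2 was at 1.51, 3.27 and 6.54 in KO and 0.34, 3.76 and 5.67 in WT, so its sign changed between pairs and its mean of 0.52 ± 0.89 (SD, n = 3 pairs) was smaller than its spread. Cxcl5, another neutrophil chemokine, had a mean of -0.39. Other CXC chemokines (7 tested) and CC chemokines (11 tested) had medians of -0.005 and -0.004, with Cxcl13 at 1.17 and Cxcl12 at -0.69, and Ccl4 at 1.14 and Ccl5 at -0.66.

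Of 14 inflammatory cytokines tested, 3 were higher and 3 lower in all pairs, near the shares of all genes (25.2% and 17.1%). The median was 0.07, near that of all genes. Il1b, the cytokine of the inflammasome, was at 2.14, 6.25 and 8.59 in KO and 0.58, 4.42 and 8.11 in WT. KO was higher in every pair, by 1.29 ± 0.71 (SD, n = 3 pairs; limma adjusted p = 0.267), and the step was smallest in neutrophils, where the level was highest. Tnf had differences of 0.08, -0.50 and 0.84, with no common sign. Il6 differed by -0.14 ± 0.17 (SD, n = 3 pairs) and was near background, not well above it, on the neutrophil arrays of both genotypes. Lif, a cytokine of the interleukin 6 family, had a mean of -1.15 that came mainly from macrophages with TNF, at -2.93, against -0.14 and -0.37 in the other pairs.

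In interleukin 6 and STAT3 signalling, 10 of 15 genes were higher in KO in all pairs and 0 were lower, against 25.2% and 17.1% of all genes. The median was 0.27, and -0.26 when scaled to the spike-ins, against 0.04 and -0.48 over all genes. Socs3, the inhibitor that STAT3 induces, was at 5.07, 5.45 and 6.32 in KO and 3.87, 4.51 and 5.20 in WT. Its differences of 1.21, 0.94 and 1.12 hardly varied (mean 1.09 ± 0.14, SD, n = 3 pairs; limma adjusted p = 0.172). Pim1, a kinase that is also a STAT3 target, differed by 0.63, 0.61 and 0.76, and Il6ra, the interleukin 6 receptor, by 0.34, 0.51 and 0.55. At the other end, Il6st, the shared signalling subunit of the receptor, had a mean of -0.36. NF-kB and TNF signalling had a median of 0.15 over 21 genes, with 9 higher and 2 lower in all pairs, and -0.37 when scaled to the spike-ins. Traf1, an adaptor of TNF receptors, differed by 0.42, 0.48 and 0.43, Nfkbia, the inhibitor of NF-kB, by 0.30, 0.33 and 0.51, and Tnfrsf1b, a TNF receptor, by -0.63, -0.92 and -0.70.

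Interferon-stimulated genes had a median of 0.43 over 26 tested, and -0.09 when scaled to the spike-ins, against 0.04 and -0.48 over all genes. In all pairs 14 were higher and 3 lower, against 25.2% and 17.1% of all genes, and 1, Ifi44, was past the size limit. These counts use the brightest probe of each gene. Xaf1 is among the 3 lower genes, while its other probe was higher in KO and past the limit, with a mean of 7.57. The median was 0.68 in macrophages with TNF, 0.30 in macrophages without it and 0.08 in neutrophils. Rsad2, the antiviral protein viperin, was at 2.13, 2.69 and 3.23 in KO and 1.32, 1.58 and 1.59 in WT, with a mean difference of 1.19 ± 0.42 (SD, n = 3 pairs; limma adjusted p = 0.211). Isg15, a ubiquitin-like protein gene, differed by 0.50, 0.99 and 1.24. Mx1 and Mx2, in contrast, were higher in both macrophage pairs and lower in neutrophils, at 0.66, 1.49 and -0.55 for Mx1. Gbp2, a guanylate-binding protein gene, was lower in each pair, by 0.44 on average (mean -0.44 ± 0.03, SD, n = 3 pairs).

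Aldo-keto reductases had mostly negative differences, and antioxidant genes had a negative median in the macrophage pairs. Of 9 aldo-keto reductases tested, 7 were lower and 1 higher (Akr7a5, at 0.20) in all pairs, against 17.1% and 25.2% of all genes. Their median was -0.78 (-1.31 with spike-in scaling, against -0.48 over all genes), and 1, Akr1e1, was past the size limit. Akr1c13 had differences of -0.34, -0.70 and -1.49, and Akr1b8 of -0.45, -1.33 and -0.74; these genes belong to families of near-identical copies, whose probes may share RNA. Of 16 NRF2 antioxidant targets, 5 were lower and 1 higher (Fth1, ferritin heavy chain, at 0.25) in all pairs; the other 10 had no common sign. The median was -0.43 (-0.95 with spike-in scaling), and -0.39, -0.51 and -0.01 in the 3 pairs. Slc7a11, the cystine transporter, had a mean of -0.60 and Gclm, a subunit of the enzyme that starts glutathione synthesis, of -0.65, with -0.86, -1.16 and 0.06 in the 3 pairs. Iron and STEAP genes (15 tested) had a median of -0.08. Steap2, a relative of Steap4, differed by -0.45, -0.85 and -1.28 and Tfrc, the transferrin receptor, by -0.65, -1.03 and 0.14. Steap3 had a mean of 0.25 by its brightest probe and of -0.40 by another. Lcn2, a carrier of iron-binding siderophores, was past the size limit at 2.10. NADPH oxidase genes (10 tested) had a median of 0.17, with Ncf4 at 0.44 and Cybb, the catalytic subunit, at -0.44.

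Most cell cycle genes had lower levels in KO, by a small amount. Of 18 tested, 15 were lower and 0 higher in all pairs, against 17.1% and 25.2% of all genes. The median was -0.40 (-0.93 with spike-in scaling, against -0.48 over all genes), and the medians of the 3 pairs were -0.34, -0.64 and -0.40. No gene of the list was past the size limit and none passed the test. Ccnb1, a mitotic cyclin, was at 1.29, 1.01 and -0.59 in KO and 1.81, 1.57 and -0.04 in WT, a difference of -0.54 ± 0.02 (SD, n = 3 pairs; limma adjusted p = 0.229). Top2a, a topoisomerase of dividing cells, had a mean of -0.74 and Plk1, a mitotic kinase, of -0.69. Cytosolic ribosomal proteins and housekeeping genes lay near all genes, with medians of 0.03 and 0.02; both medians turned below 0 with quantile, cyclic loess and spike-in scaling. Among the ribosomal genes, Rps4l stood apart at -1.59, -1.78 and -1.56, past the size limit. Rps3 had a mean of 0.68 by its brightest probe, while other Rps3 probes had means of -0.18 and -0.17.

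Genes of macrophage activation had list medians of 1.15 and 0.59 in the macrophage pairs and 0.12 in neutrophils (14 tested). Their median over the pairs was 0.75, and 0.23 with spike-in scaling, against 0.04 and -0.48 over all genes. Of the 14, 5 were higher and 1 was lower in all pairs, against 25.2% and 17.1% of all genes. The contrast between cell types was not tested as a list. Chil3, a chitinase-like protein of alternative activation that neutrophil precursors also make, differed by 2.33, 2.44 and 0.56, and Cd163, a scavenger receptor, by 3.09, 2.32 and -0.07, with 1 of 3 WT arrays well above background. Single genes were lower in KO in neutrophils. Mrc1, the mannose receptor, differed by -0.02, -0.10 and -1.30, with little difference in the macrophage pairs. Ccl24, an eosinophil chemokine of alternative activation, differed by 1.69, 0.43 and -2.68, with the opposite sign in neutrophils only. MHC class II genes had medians of 0.53 and 0.51 in the macrophage pairs and -0.14 in neutrophils (12 tested, median 0.29, and -0.24 when scaled to the spike-ins); Ciita, their transcriptional activator, was highest at 0.66, and Ctss was lowest at -0.02. B cells carry MHC class II too, and their markers moved the same way, with medians of 1.90 and 1.95 in the macrophage pairs and -0.05 in neutrophils; their part was not tested.

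**Figure D4:**
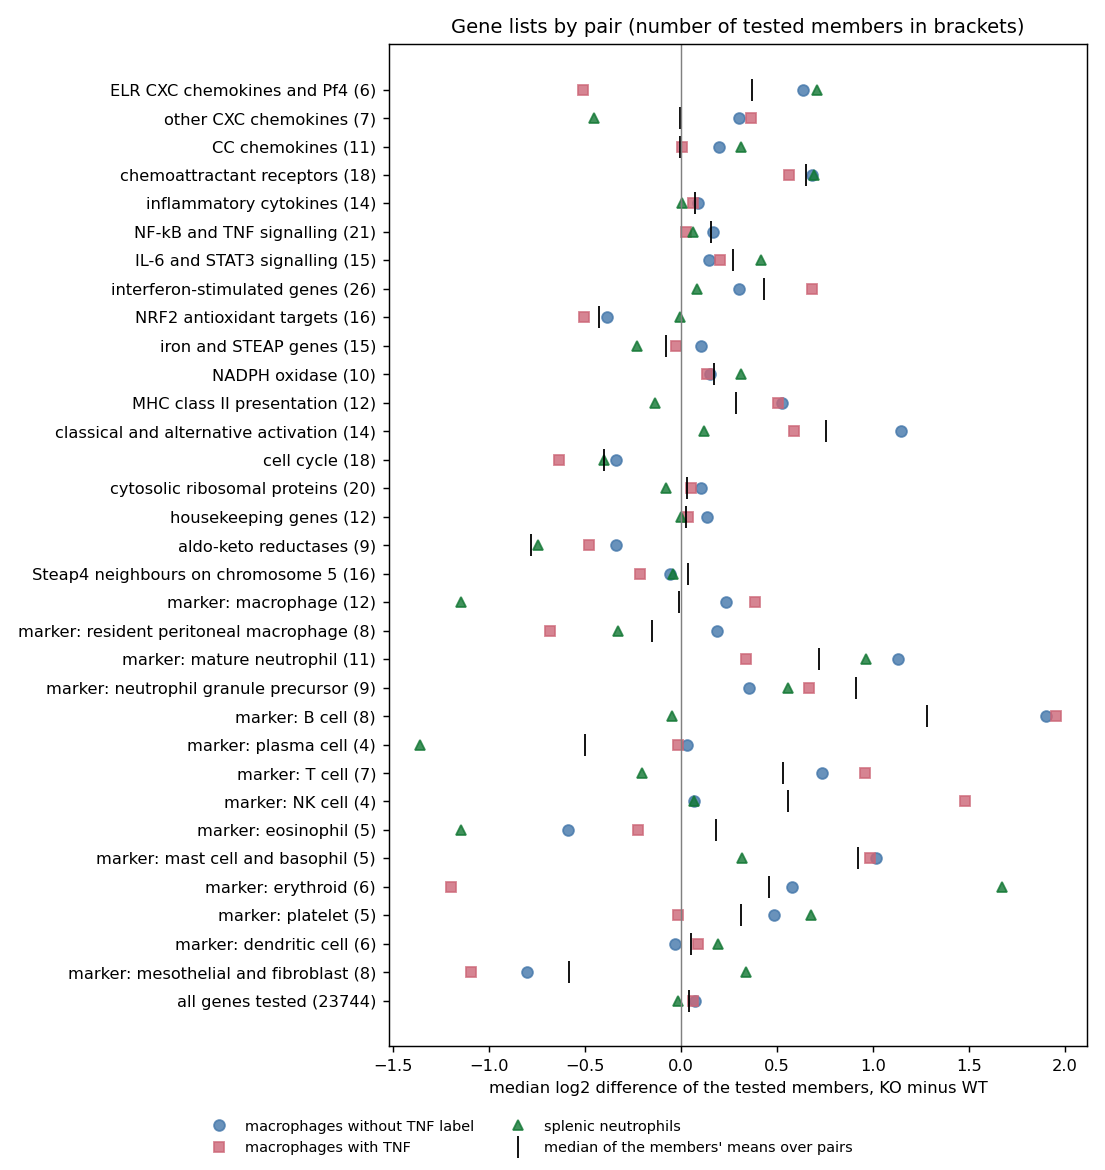
Median KO minus WT log2 difference (horizontal axis) of the tested members of each gene list, by pair; black bars are the median of the members' means over the 3 pairs, and the last row is all genes. Chemoattractant receptors are between 0.56 and 0.69 and cell cycle genes between -0.64 and -0.34, while B cell markers are at 1.90 and 1.95 in the macrophage pairs and -0.05 in neutrophils.

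Markers of other cells moved with these values, and their part in the results was not tested. Of 11 markers of mature neutrophils, 7 were higher in KO in all pairs and 0 lower, against 25.2% and 17.1% of all genes. Past the size limit were 2 (Cxcr2 and Il1r2), and the list median was 1.13, 0.34 and 0.96 in the 3 pairs. Cxcr2 was also counted among the chemoattractant receptors above, so these lists are not separate observations. S100a9, a major cytosolic protein of neutrophils, was at 7.52, 7.36 and 10.28 on KO arrays, against 2.60, 3.27 and 10.23 on WT arrays. The KO macrophage arrays were thus far above the WT macrophage arrays, while the neutrophil arrays differed by 0.05. Ly6g, the antigen used to select neutrophils, differed by 1.81 and 1.85 in the macrophage pairs and 0.15 in neutrophils. The log2 of the summed linear levels of the list was 8.83, 8.98 and 11.44 on KO arrays, against 7.47, 7.96 and 11.13 on WT arrays. Of the 9 markers of neutrophil granule precursors tested, 7 were higher and 1, Elane, was lower in all pairs. This list shares Lcn2 with the iron genes and Chil3 with the genes of macrophage activation.

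B cell markers were higher in KO macrophage samples: the list median was 1.90 and 1.95 in the macrophage pairs and -0.05 in neutrophils (8 tested), and their summed level, again as log2, was 4.52, 4.07 and 9.32 on KO arrays, against 2.90, 2.42 and 9.38 on WT arrays. The summed level was thus highest in the neutrophil samples of both genotypes. T cell markers had medians of 0.74, 0.96 and -0.20, with Cd3d and Cd8b1 past the size limit. The WT neutrophil array did not read Cd8b1 well above background, so its difference of 2.12 there is not measured on both sides. Cd3e had a mean of -0.08 and Cd28 of -0.74, with -2.04 in neutrophils. Macrophage markers differed by medians of 0.23 and 0.38 in the macrophage pairs and -1.15 in neutrophils; C1qa, a complement protein of macrophages, was at -1.29 and Adgre1 at -1.39 in neutrophils. Plasma cell markers were at -1.36 in neutrophils, erythroid markers at 0.58, -1.20 and 1.67, and mesothelial and fibroblast markers at -0.80, -1.10 and 0.34. Mast cell and basophil markers had a median of 0.92, NK cell markers of 0.56, platelet markers of 0.31, dendritic cell markers of 0.05 and resident peritoneal macrophage markers of -0.15. Eosinophil markers (5 tested) had pair medians of -0.59, -0.23 and -1.15 although the median of the genes' means was 0.18, and Prg2, a protein of eosinophil granules, had a mean of -2.59.

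Genes bright in neutrophils were a larger share of those higher in KO. Of the 115 genes past the size limit and higher in KO, 61 (53.0%) had a level in WT neutrophils at least 2-fold above that in both WT macrophage samples, against 10 (17.5%) of the 57 lower genes and 4853 (20.4%) of all genes. This comparison shares the WT arrays with the KO differences, so the shares are a description only. Without such genes, a choice made after seeing the data, 54 higher and 47 lower genes were left past the limit.

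By position, the 167 genes past the limit with a mapped chromosome were 0.715% of those tested. Each named gene or region was counted by itself, so overlapping regions, such as some on chromosome 6, were counted separately. The shares and window counts are therefore not counts of separate loci. The share was 1.44% on chromosome 2 (25 of 1736, 11 higher and 14 lower), 1.34% on chromosome 6 (17 of 1270), 1.05% on chromosome 12 and 1.01% on chromosome 11 (17 of 1678), and, leaving out chromosome Y (0 of 14 genes tested), was lowest on chromosomes 18 and 3, at 0.166% and 0.177%. Of 276 windows of 10 Mb, 3 held at least 4 such genes: 6 of 138 genes between 120 and 130 Mb on chromosome 2, 6 of 184 between 60 and 70 Mb on chromosome 11, which include Sat2, and 5 of 189 between 50 and 60 Mb on chromosome 7. Near Steap4 on chromosome 5, 0 of 50 genes within 5 Mb were past the limit, with a median of 0.03 and a range from -0.86 to 1.05. Among 16 listed neighbours of Steap4, 6 were lower and 1 was higher in all pairs, against 17.1% and 25.2% of all genes. None was past the size limit. Their median over the pairs was 0.04, as over all genes, and the medians of the 3 pairs were -0.06, -0.21 and -0.04. Of the neighbours, Steap2 was at -0.86, Dbf4, a cell cycle kinase activator, at -0.49 and Tmem243 highest at 0.28.

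**Figure D5:**
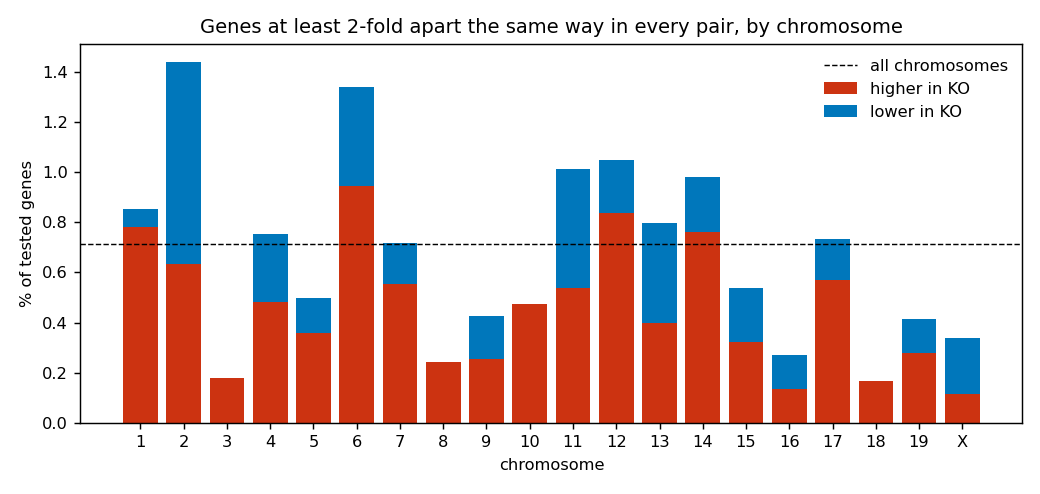
Share of tested genes (percent, vertical axis) at least 2-fold higher (red) or lower (blue) in KO in every pair, by chromosome; the dashed line is the share over all chromosomes, 0.715%. Chromosomes 2 and 6 are tallest at 1.44% and 1.34%. On chromosomes 3, 8, 10 and 18 there are only genes higher in KO. Overlapping regions are counted as separate genes.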

How the data were processed

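Total RNA was labelled with Cy3 and hybridised to 6 one-colour Agilent mouse arrays. Each deposited file gives the intensity of every spot in linear units; per the file headers, Agilent Feature Extraction 10.7.3.1 subtracted background and detrended each array, with no scaling between arrays. All 6 arrays were on 1 slide and scanned in 1 run; 0 spots were saturated.

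Outlier spots (101 to 121 per array) were left out, log2 signals of repeated spots averaged and the 75th percentile subtracted; the deposited values were not on a log2 scale. Genes were named through RefSeq GRCm38.p6 and read from the probe with the highest mean. limma 3.58.1 in R 4.3.3 fitted genotype with the condition as a block (2 residual degrees of freedom), with Benjamini-Hochberg adjustment over 33683 probes, and was tested on simulated data. Named in any case were Steap4, Il1b, Il6, Tnf, the chemokines Cxcl1 and Cxcl2 and their receptors; further named genes were the 12 largest means in each direction, 2 per direction of each list and 5 per direction by cell type; since 0 probes passed, the 12 were filled by the size rule. Other list members named were chosen after their values were seen. Members, the 32 lists and these rules were chosen with earlier results of these data known. P-values reflect the spread between arrays only. Precision is limited by the number of arrays. A gene of the lists is not reported here.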

Additional observations from a re-analysis of the deposited data

How the results depend on the processing

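The pooled test called 0 probes with quantile normalization, scaling to the median, cyclic loess or no filter on dim probes. It also called 0 with a filter on all 6 arrays or with macrophage arrays averaged per genotype. With no block for condition it called 0 as well (375 unadjusted p-values under 0.05, against 4882). Replicates 1, 2 and 3 are the conditions: macrophages, macrophages with TNF and neutrophils. Without replicate 1, 2 or 3, and so without a whole condition, the pooled test called 0 to 0 in each direction. It called 217 higher and 10100 lower with spike-in scaling, which took the median of all probes to -0.48, against 0.04; 12 and 6 with normexp; and 5 and 3 with a trended and robust variance. Calls of the cell type difference were 2115 higher and 1497 lower in neutrophils with spike-in scaling, 1021 and 1847 with normexp, 13 and 91 with the filter on all 6 arrays, and 939 and 1653 with the trended and robust variance. Probes past the size limit were 44 higher and 443 lower with spike-in scaling, 34 and 20 with normexp, 278 and 104 with no filter, and 90 and 37 with the filter on all 6 arrays. Without genes bright in WT neutrophils, 54 genes were higher. The share of higher probes among them was 66.7%, and 56.2% with quantile normalization and 9.03% with spike-in scaling. The cause of these shifts was not tested, except that filters change the probes tested and spike-in scaling moves all probes. All 172 genes past the limit kept their sign in each of these settings in which they were tested. They were picked for sharing 1 sign in every pair, so settings that reuse the same levels could not change it. Spike-in scaling moved all probes by less than the size limit, so it could not change the sign either. Of the 172 genes, 84 stayed past the limit with spike-in scaling and 40 with normexp. Of 140 named genes, 28 changed sign with spike-in scaling, Cxcl2 (-0.01) among them. Dim probes limit precision: 9 of the lower genes were on no KO array well above background.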
